A study of Ovis aries with 16 samples.

Results

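Cytokines, chemokines and their receptors other than TNF, IL1B, IL1RN, CXCL8 and CXCL10 were followed in the hippocampus of late gestation fetal sheep 24 h after the onset of a 30 min stimulus. The members were the probes whose gene name on the array began with IL and a digit, CCL, CXCL, CCR, CXCR, TNF, IFN, CSF, TGFB or LIF, with the 5 genes just named left out. The rule used names and no measured value, and it found 32 genes, measured by 58 of the array's 15008 probes. A further 5 probes, listed under other names such as GRO and GMCSF, have accessions of such genes in RefSeq and were not taken.

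The study asked whether ketamine, a blocker of the NMDA class of glutamate receptor, alters the response of the fetal brain to transient hypoxia. Hypoxia was made by lowering the oxygen in the gas breathed by the ewe, and every fetus carried chronic catheters and recovered for 23.5 h in normoxia. The groups were normoxia control (NC, n = 3), normoxia with ketamine (NK, n = 4), hypoxia control (HC, n = 5) and hypoxia with ketamine (HK, n = 4), with ketamine given intravenously to the fetus at 3 mg/kg before the stimulus and 1 Agilent 1-color array per fetus. The methods describe mostly twin fetuses and a random choice of normoxia or hypoxia for each pregnancy, and the sample labels do not say which fetuses were twins, so the p-values measure the spread between these fetuses and some may share a ewe.

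Cytokines are small secreted proteins by which immune cells, glia and other cells signal to each other, and chemokines are the cytokines that steer cell movement. Each acts through receptors on the cell surface. Most interleukin receptors outside the IL1 family (here IL1A and IL18), and the interferon receptors, act through JAK kinases and STAT factors. The TNF receptors act through NF-kappaB, and the TGF-beta receptors through SMAD proteins. In the brain they come mainly from microglia, astrocytes, endothelium and blood leukocytes, and most are made at low levels in tissue that is not inflamed. Because whole hippocampus was used, fewer cells of a type and less RNA per cell cannot be told apart.

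Many of these genes were dim or silent. Of the 58 probes, 25 were well above background on all 16 arrays, and 36 probes of 24 genes passed that criterion on 3 or more arrays and entered the tests. The other 22 probes were not tested, and 8 genes had no tested probe, namely the interleukins IL2, IL4, IL5, IL12B and IL13, the chemokine CCL28, the receptor CCR9 and the probe named IFN1. No probe of these 8 genes was well above background on more than 2 arrays. IL4, IL5 and IL13, products of helper T cells of type 2, had no array well above background, whereas IL2 had 1 such array in HK. No member was saturated. Between 76.7% and 82.6% of the spots of each array were well above background, and the array software set that mark at 13 standard deviations of the background.

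**Figure D1:**
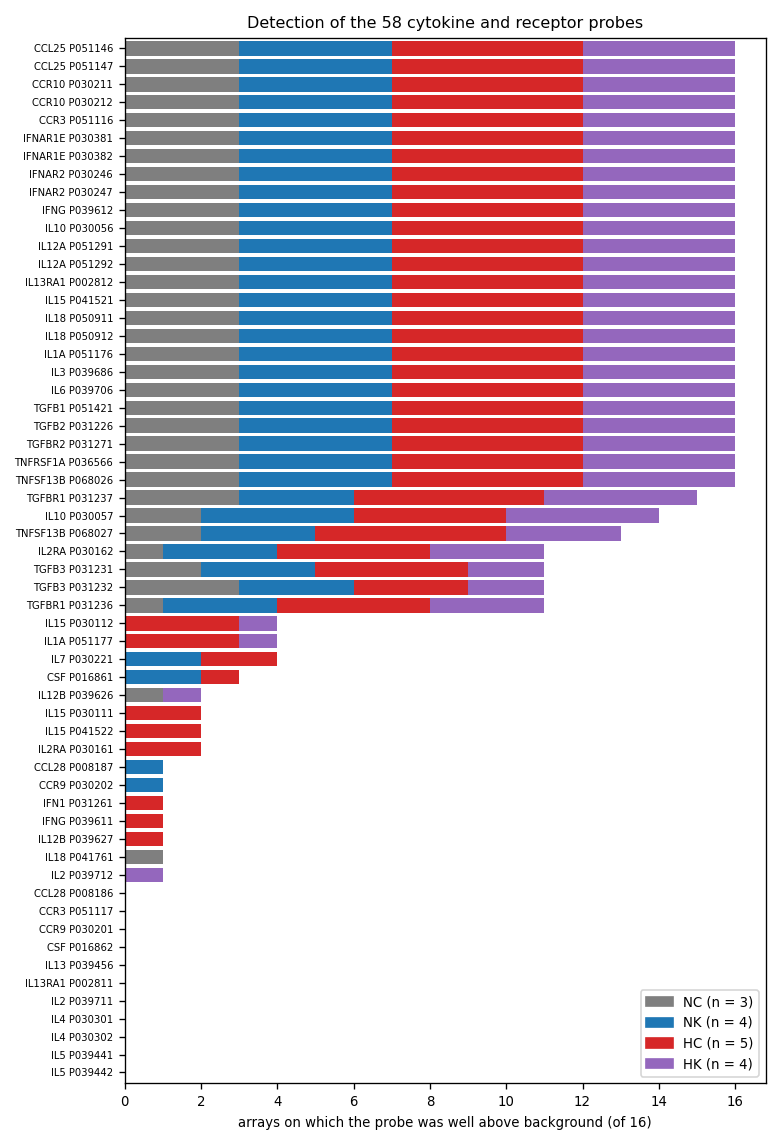
Number of arrays of 16 on which each of the 58 probes was well above background, colored by group, with probes in order of that number. The upper 25 probes were detected on every array, and the lower probes of IL15, IL1A, IL7 and IL2RA were detected on arrays of only some of the groups.

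Different probes of a gene did not always detect it, so probe sequences are shown for genes on which a result turns. Each probe is 60 bases long, and a stretch of 30 bases is printed from its beginning or its end, with capitals for bases that another probe of the same gene also holds.
IL12A A_70_P051291, first 30 bases: TTTTTATAAGACAAAAGTCAAGCTCTGCAT
IL18 A_70_P050912, last 30 bases: gagaagtgttCCAGGACATGATGATAAGAT
IL18 A_70_P041761, last 30 bases: tttaccttagctctaatacagaaaattgtg
IL15 A_70_P030112, last 30 bases: aatagaaaatcttaCCATGCTAGCAGACAG
IL15 A_70_P041521, first 30 bases: TTGATATACAAGGCCCTTCTtcttgctgtt
IFNG A_70_P039612, last 30 bases: ctgcaatatttgaattttaaaatctaaatc
IFNG A_70_P039611, last 30 bases: caaggttttatctcagggtccaacttggca
IL13RA1 A_70_P002812, last 30 bases: tggaagaagtatgacatctatgagaagcaa
IL13RA1 A_70_P002811, last 30 bases: atagaaaacctgaagaaagccgctcagtga
IL2RA A_70_P030162, last 30 bases: aagtacaatcagactccatcgtcagcattc
TNFRSF1A A_70_P036566, last 30 bases: aacccgaccttcaactggtaaagattctca
IL7 A_70_P030221, last 30 bases: tagcaatataaaaccttgagctttatttgc
TNFSF13B A_70_P068027, last 30 bases: gggaaaccatTCTCTCATGAGTGTACACTT
The IL12A stretch is held whole by both IL12A probes, and across the 16 arrays their log2 levels correlated with r = 0.99. The paired IL18 and TNFSF13B probes share 20 bases and correlated with r = 0.94 and r = 0.96. The probes of the IFNG pair and of the IL13RA1 pair do not overlap, and in each pair 1 probe was well above background on all 16 arrays while the other was so on 1 array for IFNG and on 0 for IL13RA1. The CCR10 probes share 59 of 60 bases, and their levels correlated with r = -0.09.

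All levels below are log2 intensities minus the 75th percentile of the array, so that a level of 0 is the 75th percentile and a difference of 1 is a doubling, and levels are compared within a probe only. Probes were called at an unadjusted p under 0.05 from limma, the threshold that the study's statistics give without naming an adjustment. Hypoxia without ketamine (HC-NC) raised 3 of the 36 tested probes, for IL18, IL2RA and TNFRSF1A, and lowered none. That is 8.33% of the probes, where 10.8% of the 12541 tested probes were called, 4.55% higher and 6.27% lower. The median difference was 0.18 over the 36 probes and -0.03 over all probes, and 22 of 36 lay above 0 against 45% of all probes. With another background correction, normexp, these medians were 1.00 and 0.34.

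Hypoxia with ketamine (HK-NK) lowered 3 of 36 probes, both of IL12A and the probe of IL7, and raised none, where 5.26% of all probes were called, 2.81% higher and 2.46% lower. Averaged over fetuses with and without ketamine, hypoxia was followed by higher IL10, IL13RA1, IL15, IL18 and IL2RA and lower IL12A. These 7 probes are 19.4% of the 36, where 12.4% of all probes were called, 5.69% higher and 6.75% lower. The IL15 probe among them entered the tests through detection on hypoxia arrays alone. No member was called for ketamine in normoxia (NK-NC, 1.78% of all probes called) or for ketamine in hypoxia (HK-HC, 4.74%).

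After Benjamini-Hochberg adjustment of limma's p-values over all 12541 probes no member was called in any comparison, and the smallest adjusted p of a member was 0.315 in HC-NC, 0.90 in HK-NK and 0.258 in the average. In HC-NC 2 of all probes (0.0159%) passed that adjustment and in the average 13 (0.104%) did, while 0 did in the other comparisons. Every call below rests on the unadjusted p. None of them was met with normexp, where IL18, IL2RA and TNFRSF1A had larger differences in HC-NC with wider errors (1.07, 1.23 and 1.00, with unadjusted p = 0.0962, unadjusted p = 0.205 and unadjusted p = 0.195), and where IFNAR2 alone was called, on 1 of 2 probes (0.52, unadjusted p = 0.0190). With the authors' normalized values IL18 was called in HC-NC and TNFRSF1A and IL2RA were not (unadjusted p = 0.0520 and unadjusted p = 0.178).

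**Figure D2:**
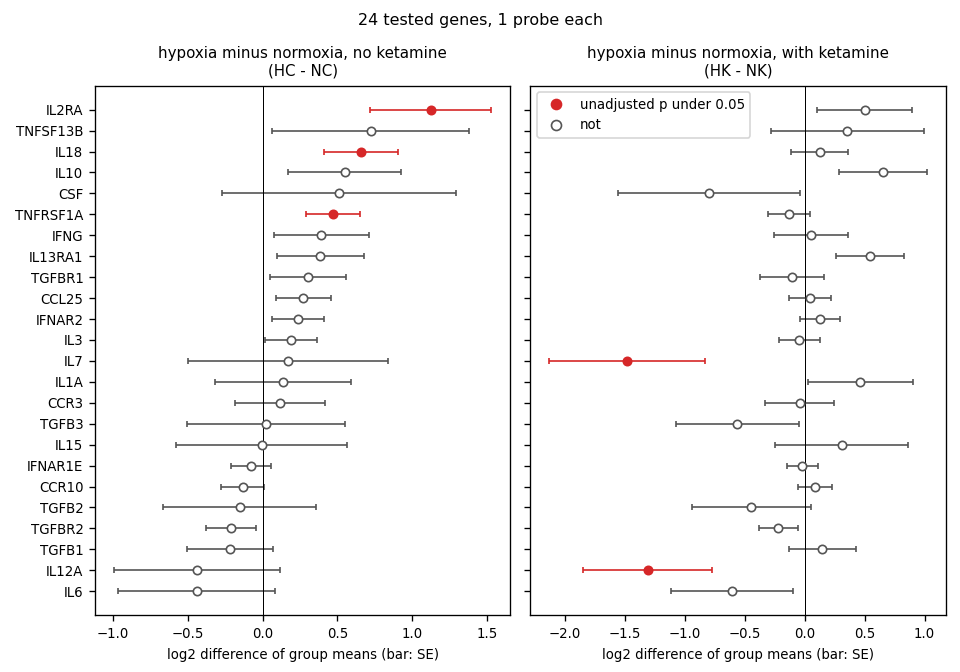
Log2 difference of group means with its standard error for the 24 tested genes, each by its brightest tested probe, for hypoxia against normoxia without ketamine (left) and with ketamine (right). Filled red points have an unadjusted p under 0.05, which are IL2RA, IL18 and TNFRSF1A on the left and IL7 and IL12A on the right. IL15 is drawn from A_70_P041521, and whether that probe measures IL15 alone was not tested.

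Among the interleukins, IL18 is a cytokine of the IL1 family that activates natural killer and T cells and is released by macrophages after cleavage by caspase 1. On A_70_P050912 the levels were -4.30, -3.47 and -3.52 in NC, -3.93, -3.18, -3.70 and -3.59 in NK, -3.58, -2.87, -3.27, -2.77 and -3.06 in HC, and -3.93, -3.12, -3.53 and -3.32 in HK. All but 1 of the HC arrays lay above every NC array, HC replicate 1 was within the NC range, and NK and HK overlapped both. The difference was 0.66 in HC-NC (SE 0.25, unadjusted p = 0.0186 and adjusted p = 0.343 from limma) and 0.12 in HK-NK (SE 0.24, unadjusted p = 0.611), and their average was 0.39 (SE 0.17, unadjusted p = 0.0393). The difference between the responses with and without ketamine was -0.53 (SE 0.34, unadjusted p = 0.144). The HC-NC call was lost without NC replicate 1, where the difference was 0.39 (unadjusted p = 0.148). The overlapping probe A_70_P050911 gave 0.48 in HC-NC (unadjusted p = 0.0784), and A_70_P041761 was well above background on NC replicate 1 alone.

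IL12A, the p35 subunit shared by IL12 and IL35, was well above background on all 16 arrays on both probes. On A_70_P051291 the levels were -2.50, -2.17 and -2.48 in NC, -1.84, -2.88, -2.26 and -1.59 in NK, -2.54, -1.86, -2.80, -2.21 and -4.72 in HC, and -2.78, -4.48, -2.81 and -3.74 in HK. The 3 lowest arrays were HC replicate 5 and HK replicates 2 and 4, and the other 13 lay between -2.88 and -1.59. The difference was -1.31 in HK-NK (SE 0.54, unadjusted p = 0.0281, adjusted p = 0.900) and -0.44 in HC-NC (SE 0.55, unadjusted p = 0.440). The other probe gave -1.34 (SE 0.54, unadjusted p = 0.0260) and -0.44. The hypoxia average was -0.87 (unadjusted p = 0.0392) on the first probe and -0.89 (unadjusted p = 0.0372) on the other, and near 0 with normexp (0.0129 and 0.0286). The HK-NK call was lost on leaving out NK replicate 1, NK replicate 4, HK replicate 2 or HK replicate 4, with differences between -1.25 and -0.97 over both probes.

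Cell type markers moved with IL12A in part. The 7 tested neuronal genes averaged -1.19 on HC replicate 5 and 0.36 on HK replicate 2, the lowest values of the 16 arrays, and between 0.59 and 1.21 on the others, HK replicate 4 included (0.70). The 2 tested of 10 neutrophil genes, LTF and CATHL3, averaged from -4.66 to -3.27 in NC, from -5.37 to -3.46 in NK, from -3.24 to 0.44 in HC and from -3.24 to 0.47 in HK, with 0.35 and 0.47 on HK replicates 2 and 4 but 0.44 on HC replicate 3, where IL12A was not low, and -1.88 on HC replicate 5. Neither list was extreme on all 3 arrays with low IL12A, and their part in the result was not tested. IL12B, which encodes the other subunit of IL12, was well above background on NC replicate 1 and HK replicate 3 with 1 probe and on HC replicate 3 with the other.

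IL7, a growth factor for lymphocytes, was detected above background on 2 NK and 2 HC arrays and on no array of NC or HK. Its levels on A_70_P030221 were -7.45, -7.51 and -6.36 in NC, -7.26, -7.01, -6.16 and -4.79 in NK, -7.66, -6.60, -7.57, -5.28 and -7.58 in HC, and -8.70, -8.60, -6.76 and -7.07 in HK. The fit gave -1.48 for HK-NK (SE 0.65, unadjusted p = 0.0382, adjusted p = 0.938) from levels that are mostly at background, and the sign turned with normexp (0.0868). With each HK array set to the lowest signal detected on it or to the probe's own, whichever was higher, mean IL7 was at least 1.43-fold higher in NK than in HK, and by the same bound at least 1.29-fold higher in NK than in NC. The NK mean in both bounds includes undetected arrays and leans on NK replicate 4 at -4.79. The HK-NK call was lost without NK replicate 3 or 4 or HK replicate 1 or 2, with differences between -1.43 and -0.98.

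IL10, a cytokine that restrains macrophages and T cells, had levels on A_70_P030056 of -4.73, -4.51 and -4.47 in NC, -4.59, -4.80, -5.18 and -4.30 in NK, -4.39, -3.38, -3.39, -5.27 and -3.68 in HC, and -4.46, -3.47, -4.42 and -3.92 in HK. HC replicate 4 was the lowest of the 16 arrays, and the other 4 HC arrays lay above all NC arrays. The average difference over HC-NC and HK-NK was 0.60 (SE 0.26, unadjusted p = 0.0391), with 0.55 in HC-NC (unadjusted p = 0.169) and 0.65 in HK-NK (unadjusted p = 0.0981). Without HC replicate 4 the difference in HC-NC was 0.86 (unadjusted p = 0.0106) and the other probe gave 0.83 (unadjusted p = 0.0102). As HC replicate 4 was picked for its low level, these p-values do not test the increase. Without other arrays the average call was less stable, and 10 of the 16 omissions took its p past 0.05, to at most 0.0826. The other probe, A_70_P030057, gave an average of 0.47 (unadjusted p = 0.139) on all arrays and correlated with the first with r = 0.95.

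IL15 is a growth factor for natural killer cells and memory T cells. A_70_P030112 detected it above background on 3 HC arrays and 1 HK array and on no array of NC or NK. Its levels were -7.76, -7.02 and -7.28 in NC, -7.75, -7.62, -7.98 and -8.52 in NK, -7.10, -5.36, -8.69, -3.01 and -5.45 in HC, and -7.55, -5.93, -6.08 and -6.32 in HK. The HK arrays lay above all NK arrays, while HC spanned the highest and the lowest of the 16. The bounds were at least 1.71-fold higher in HC than in NC (fitted difference 1.43, unadjusted p = 0.126, adjusted p = 0.618) and at least 1.30-fold higher in HK than in NK (1.496, unadjusted p = 0.100, adjusted p = 0.946). They hold for group means only, which include undetected arrays. The first leans on HC replicate 4 at -3.01, and the second has 1 detected HK array. The average passed at 1.46 (SE 0.61, unadjusted p = 0.0312), and without HC replicate 4 it was 1.098 (unadjusted p = 0.0299). The probe passed the filter of 3 arrays through hypoxia arrays alone, so p-values on this probe do not test the increase. Without HC replicate 3, the lowest array, the HC-NC difference was 2.12 (unadjusted p = 0.00930). That array was picked for its low level, so this p-value does not test the increase. The average call was lost without NC replicate 1, NK replicate 4, HK replicate 2 or HK replicate 3 (unadjusted p at most 0.0661).

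The other IL15 probes read differently. A_70_P041521, which was well above background on all arrays and has the brightest signal, gave -0.01 in HC-NC (SE 0.57, unadjusted p = 0.990) and 0.31 in HK-NK (SE 0.55, unadjusted p = 0.585). A_70_P030111 and A_70_P041522 were well above background on 2 HC arrays each and on no other array. A_70_P041522 was designed from the same sequence record as A_70_P041521 and shares 20 bases with it, yet only the latter was detected on all 16 arrays. The levels of A_70_P041521 and A_70_P030112 correlated with r = 0.66. Whether A_70_P041521 measures IL15 alone was not tested, so its differences are no test of those on A_70_P030112. On HC replicate 4 all 4 probes had their highest level.

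The remaining tested interleukins were not called. IL6, an inducer of the acute phase response, had levels of -3.80, -4.39 and -4.16 in NC, -4.29, -4.09, -4.20 and -4.07 in NK, -3.96, -5.29, -5.64, -2.52 and -5.38 in HC, and -4.86, -4.87, -4.89 and -4.44 in HK. All HK arrays lay below all NK arrays, and HC replicates 2, 3 and 5 lay below every other array while HC replicate 4 was the highest of 16. IL6 was singled out after its values were seen. The difference was -0.60 in HK-NK (SE 0.51, unadjusted p = 0.253) and -0.44 in HC-NC (SE 0.52, unadjusted p = 0.415). Without HC replicate 4 the HC-NC difference was -0.95 (unadjusted p = 0.00872) and the average -0.78 (unadjusted p = 0.00263), and a fit of HK and NK alone gave unadjusted p = 0.00156 for -0.60. HC replicate 4 was picked for its high level, so leaving it out is no test of a decrease.

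IL1A, a cytokine stored in cells and set free on damage, differed by 0.13 in HC-NC and by 0.46 in HK-NK on A_70_P051176, with SE 0.45 and 0.44. Its dimmer probe was well above background on 3 HC arrays and 1 HK array alone, and gave -0.14 and 0.79. IL3, a growth factor for blood progenitors and mast cells, differed by 0.19 (SE 0.18) and -0.05 (SE 0.17).

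**Figure D3:**
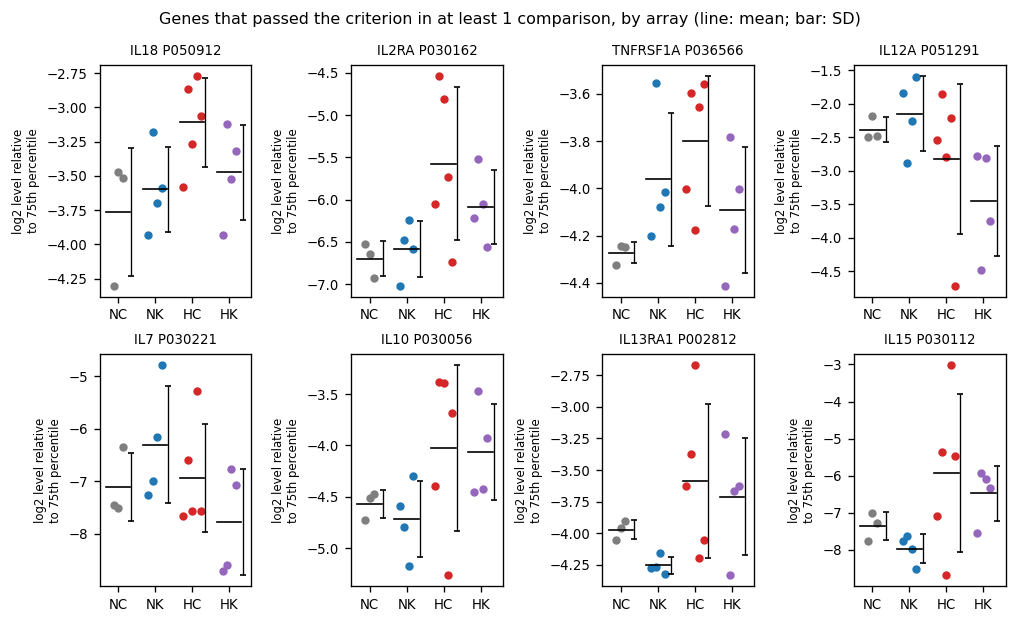
Log2 level by array for the 8 genes with a call in at least 1 comparison, in the order NC, NK, HC and HK, with the group mean as a line and the SD as a bar. IL18, IL2RA and TNFRSF1A were higher in HC than in NC, IL12A was lowest on HC replicate 5 and HK replicates 2 and 4, and IL15 on this probe was detected only in HC and HK.

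Of the interleukin receptors, IL2RA, the alpha chain that gives the IL2 receptor its high affinity on activated and regulatory T cells, had the largest called increase in HC-NC among the tested members. On A_70_P030162 the levels were -6.52, -6.64 and -6.93 in NC, -7.03, -6.48, -6.24 and -6.58 in NK, -6.06, -4.53, -4.81, -5.74 and -6.74 in HC, and -6.22, -5.51, -6.05 and -6.56 in HK. Detection above background came on 1 NC, 3 NK, 4 HC and 3 HK arrays. All HC arrays except replicate 5 lay above every NC array. The difference was 1.12 in HC-NC (SE 0.41, unadjusted p = 0.0149, adjusted p = 0.315), 0.50 in HK-NK (SE 0.39, unadjusted p = 0.225) and 0.81 on average (SE 0.28, unadjusted p = 0.0121). The average call held on leaving out any of the 16 arrays, with unadjusted p at most 0.0313, and the HC-NC call was lost only without NC replicate 3 (1.01, unadjusted p = 0.0545). The other probe was well above background on HC replicates 1 and 2 alone.

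IL2RA and IL10 shared their 3 highest arrays, which were HC replicates 2 and 3 and HK replicate 2. The 4 tested T and B lymphocyte markers, CD3D, CD3E, CD5 and LCK, also had their 3 highest mean levels there, at -3.22, -3.57 and -2.89, and between -4.68 and -3.97 on the others. CD5 rose by 1.37 in HC-NC (unadjusted p = 0.00908), and the other 3 were not called. The 6 tested of 18 microglia and macrophage markers averaged -5.19 to -4.46 in NC and -4.36 to -2.71 in HC, with NK at -4.98 to -4.15 and HK at -4.66 to -3.70. CD14, FCER1G and FCGR1A rose in HC-NC and none of the 6 fell, with a median difference of 1.12. AIF1, CD68, PTPRC and P2RY12 are not on the array under these names. Of the other cell types listed, GJA1 of 3 tested astrocyte genes and the red cell gene AHSP rose, 4 of 7 neuronal genes fell, and none of 2 endothelial, 4 choroid plexus and 4 meningeal genes was called in HC-NC, while no oligodendrocyte gene of the list is on the array. The part of these cells in the increases of IL18, IL2RA and TNFRSF1A was not tested.

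IL13RA1, a receptor chain for IL13 and IL4, had levels of -4.05, -3.96 and -3.91 in NC, -4.28, -4.27, -4.15 and -4.32 in NK, -3.63, -3.38, -2.67, -4.19 and -4.06 in HC, and -3.21, -4.33, -3.66 and -3.63 in HK. NC and NK were tight, with all NK arrays below all NC arrays, HC held 3 arrays above the normoxic range and 2 within it, and HK held 3 above and 1 just below. The average difference was 0.47 (SE 0.20, unadjusted p = 0.0373), from 0.39 in HC-NC and 0.55 in HK-NK. That call was lost on 10 of the 16 omissions of an array, with unadjusted p at most 0.0802. Its ligand IL13 and IL4 were not detected on any array.

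In the TNF family, TNFRSF1A is the main receptor for TNF on most cells, and TNFSF13B (BAFF) is a survival factor for B cells made by myeloid cells. TNFRSF1A had levels of -4.32, -4.24 and -4.25 in NC, -4.20, -3.56, -4.08 and -4.01 in NK, -4.00, -3.60, -4.18, -3.66 and -3.56 in HC, and -4.41, -3.78, -4.17 and -4.00 in HK. All HC arrays and all NK arrays lay above all NC arrays, and HK overlapped every group. The difference was 0.47 in HC-NC (SE 0.18, unadjusted p = 0.0201, adjusted p = 0.351), 0.31 in NK-NC (SE 0.19, unadjusted p = 0.123) and -0.13 in HK-NK (SE 0.17, unadjusted p = 0.466). The response to hypoxia with ketamine minus that without was -0.60 (SE 0.25, unadjusted p = 0.0305, adjusted p = 1.0), the only member called for that interaction, where 3.44% of all probes were called. The HC-NC call was lost without NC replicate 1 (0.45, unadjusted p = 0.0568), and the interaction without any of 6 arrays (unadjusted p at most 0.0668).

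Few members had groups that did not overlap. In HC-NC, TNFRSF1A was the only 1 of 36 probes, where 7.81% of all probes did not overlap. In HK-NK there were 2 (IL15 and IL6, 3.33% of all probes), in NK-NC 2 (TNFRSF1A and IL13RA1, 3.52%) and in HK-HC none (1% of all probes).

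TNFSF13B was not called and varied widely within HC. On A_70_P068026 the levels were -5.21, -4.44 and -6.09 in NC, -5.40, -5.70, -6.14 and -6.05 in NK, -6.41, -3.78, -4.74, -2.36 and -5.34 in HC, and -5.43, -5.17, -5.41 and -5.85 in HK. HC held both the lowest array, replicate 1, and the highest, replicate 4. The difference was 0.72 in HC-NC (SE 0.66, unadjusted p = 0.292) and -0.94 in HK-HC (SE 0.61, unadjusted p = 0.142). The other probe gave 0.73 and -1.27 (SE 0.61, unadjusted p = 0.0554). Without HC replicate 1 the HK-HC difference was -1.41 (unadjusted p = 0.0175) and -1.69 (unadjusted p = 0.00933), and without HC replicate 4 the HC-NC difference was 0.18 (unadjusted p = 0.726) and 0.19 (unadjusted p = 0.719). Both arrays were picked for their extreme levels, so these p-values test neither difference.

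HC replicate 4 differed from the other arrays in how many members it held at an extreme. It was the highest of the 16 arrays on 10 of 36 probes (27.8%), for IFNAR2, IFNG, IL15, IL18, IL6 and TNFSF13B, and on 4.39% of all probes. The next were NK replicates 1 and 4 at 13.9%, with 4.51% and 8.2% of all probes. It was the lowest array on 4 member probes, both of IL10 and 1 each of CCR10 and TGFB1, and on 7.06% of all probes, while HC replicates 1 and 5 were lowest on 6 and 5 member probes. HC had the widest spread of the groups on 18 of 36 member probes and on 35.1% of all probes, with a median SD of 0.54 for members against 0.26 for all. Members also spread more than all probes in NC (0.26 against 0.18), NK (0.33 against 0.21) and HK (0.40 against 0.24). The mean of microglia and macrophage markers on HC replicate 4 was -3.65, above every NC, NK and HK array, and only HC replicate 2 was higher (-2.71). The part of such cells in these levels was not tested. Without HC replicate 4, 6 rather than 3 member probes were called in HC-NC, namely IL18, IL2RA and TNFRSF1A as before with both IL10 probes higher and IL6 lower. That array was picked for its extreme levels, those of IL10 and IL6 included, so the added calls test no change. The share of all probes called without it is not given here.

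**Figure D4:**
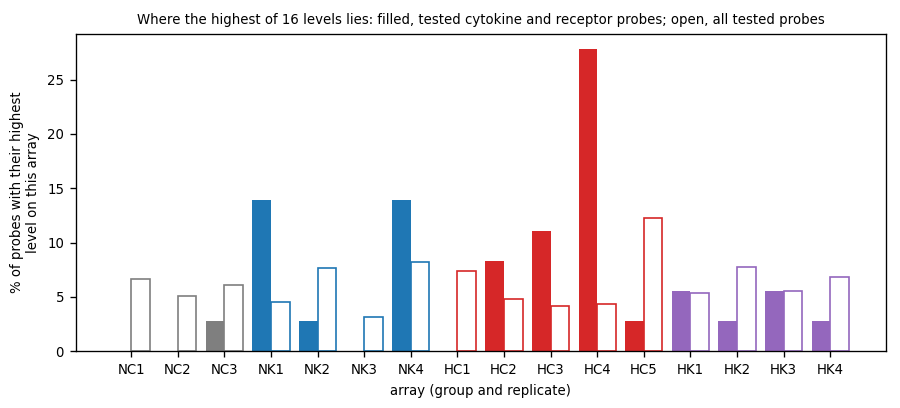
Share of probes that had the highest of their 16 levels on each array, filled for the 36 tested members and open for all 12541 tested probes. HC replicate 4 held the highest level of 27.8% of the members and of 4.39% of all probes.

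Among the interferons, IFNG, the interferon of T and natural killer cells, had levels on A_70_P039612 of -5.79, -5.67 and -4.78 in NC, from -5.50 to -4.76 in NK, -5.22, -5.35, -5.39, -3.99 and -5.15 in HC, and from -5.48 to -4.73 in HK. HC replicate 4 lay above all others, and on A_70_P039611 it was the only array well above background. The difference in HC-NC was 0.39 (SE 0.32, unadjusted p = 0.238) with all arrays and 0.13 (unadjusted p = 0.595) without HC replicate 4. The receptor chains of type I interferons were bright. IFNAR1E, listed in RefSeq as IFNAR1, varied little, from 2.27 to 2.80 on A_70_P030381, and differed by -0.08 (SE 0.13) in HC-NC and -0.02 (SE 0.13) in HK-NK. IFNAR2 differed by 0.24 (SE 0.17) and 0.13 (SE 0.17) on A_70_P030247, and HC spanned the lowest and the highest array at -0.35 and 0.57. Without HC replicate 1, the lowest, IFNAR2 was called higher in HC-NC on both probes, by 0.36 (unadjusted p = 0.0304) and 0.39 (unadjusted p = 0.0132). This omission was picked after the levels were seen, so it is no test of an increase.

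**Figure D5:**
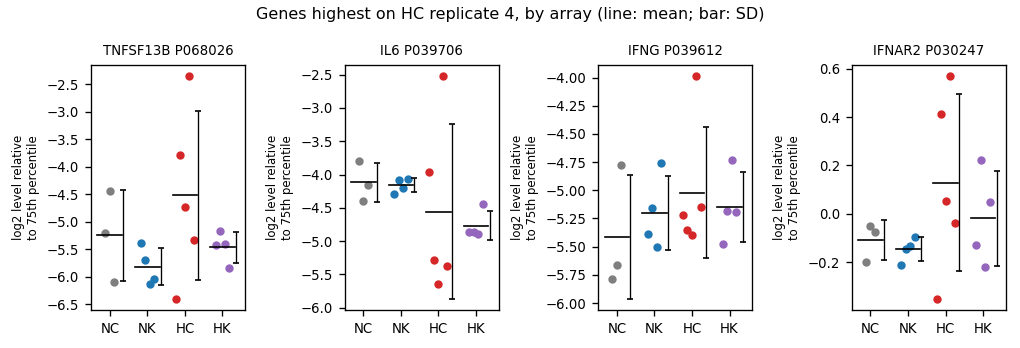
Log2 level by array for TNFSF13B, IL6, IFNG and IFNAR2 in NC, NK, HC and HK, with the group mean as a line and the SD as a bar. HC replicate 4 is the highest point of each panel, at -2.36, -2.52, -3.99 and 0.57, and the other HC arrays spread below it.

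Of the chemokines, only CCL25, which draws T cells to thymus and gut, was tested. It differed by 0.27 (SE 0.18, unadjusted p = 0.158) in HC-NC and 0.05 (SE 0.18) in HK-NK on A_70_P051147. Its receptor CCR9 was well above background on 1 NK array with 1 of its probes. CCR3, a receptor of eosinophils and mast cells, was well above background on all arrays with 1 probe and on 0 with the other, and differed by 0.12 (SE 0.30) and -0.04 (SE 0.29). CCR10 differed by -0.13 (SE 0.15) and 0.09 (SE 0.14), and its ligand CCL28 was well above background on 1 NK array. CSF, described in the files as granulocyte colony stimulating factor, passed on 2 NK arrays and 1 HC array with 1 probe and on 0 with a probe that shares 56 of its bases, and a bound on its change could not be given. No chemokine or chemokine receptor was called in any comparison.

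The TGF-beta ligands and receptors, which in the brain include products of microglia, astrocytes and neurons, were all tested, and none was called without a block. With slide as a block TGFBR2 was called lower in HC-NC (-0.29, unadjusted p = 0.0318), with -0.27 and -0.33 within the slides, and on average (-0.26, unadjusted p = 0.00914). TGFB1 differed by -0.22 (SE 0.29) in HC-NC and 0.15 (SE 0.28) in HK-NK, and TGFBR2 by -0.21 (SE 0.17) and -0.22 (SE 0.16). TGFB3 was well above background on 11 arrays with each probe and differed by 0.02 (SE 0.53) and -0.56 (SE 0.51), while TGFBR1 differed by 0.30 (SE 0.25) and -0.11 (SE 0.27) with NK replicate 1 missing on that probe. In HC-NC the other probe of each had the opposite sign, at -0.38 (SE 0.46) for TGFB3 and -0.12 (SE 0.28) for TGFBR1. TGFB2 parted the arrays within groups. It was near 1.6 on NC replicate 1 and NK replicates 1 and 3, at 1.58, 1.60 and 1.57, and between -0.55 and 0.98 on the other 13. Its differences were -0.15 (SE 0.51) and -0.45 (SE 0.50).

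Genes downstream of these receptors were counted from lists of pathway members. Of 31 genes of the SMAD and activin pathway 18 were tested, and SMAD7, an inhibitor of TGF-beta signaling, fell by 0.71 (unadjusted p = 0.0372) in HC-NC while none rose, 1 call among 18 genes where 10.8% of all probes were called. In HK-NK the activin inhibitor FST rose by 1.16 (unadjusted p = 0.0346) and the receptor ACVR1 fell by 0.47 (unadjusted p = 0.0301). The median of the 18 was -0.14 in HC-NC and 0.06 in HK-NK, against -0.03 and -0.01 for all probes. Of 25 genes of NF-kappaB and TRAF only 2 were tested. NFKBIA, the inhibitor of NF-kappaB that NF-kappaB itself induces, rose by 1.30 (unadjusted p = 0.00219) in HC-NC and TRAF3, an adaptor of TNF family receptors, fell by 0.61 (unadjusted p = 0.000421). This count is too small to describe the pathway.

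Ketamine in hypoxic fetuses gave no call among the members in the fit of all arrays without blocks. With the replicate number as a block there were lower calls, given at the end, and whether that number pairs the samples is unsettled. The median of HK-HC was -0.13 over the 36 probes and 0.02 over all probes, and 10 of 36 lay above 0 where 55.4% of all probes did. HK-HC and HC-NC share the HC arrays, which ties a low value in the former to a high value in the latter. IL18, IL2RA and TNFRSF1A, raised in HC-NC, differed in HK-HC by -0.36 (SE 0.23, unadjusted p = 0.130), -0.51 (SE 0.37, unadjusted p = 0.191) and -0.29 (SE 0.17, unadjusted p = 0.0974). The microglia and macrophage markers were also lower, with 0 of 6 above 0, a median of -0.64, and calls for CD14 (-1.10, unadjusted p = 0.0181) and FCGR1A (-0.996, unadjusted p = 0.0262), and their part in these differences was not tested. Without HC replicate 5 there were 4 calls in HK-HC, all lower, for IL2RA (-0.80, unadjusted p = 0.0254), both IL12A probes (-1.10, unadjusted p = 0.0108, and -1.26, unadjusted p = 0.00573) and 1 TNFSF13B probe (-1.56, unadjusted p = 0.0258). TNFRSF1A was called lower without HC replicate 3 (-0.39, unadjusted p = 0.0312) and without HK replicate 2 (-0.40, unadjusted p = 0.0382), and 1 TGFB3 probe without HK replicate 2 (-1.04, unadjusted p = 0.0498). The arrays left out were at an extreme of their group for most of these genes, so these p-values do not test a decrease. Most omissions of an array gave 0 calls in HK-HC. Ketamine in normoxia moved the median of the members by 0.02 and gave no call, with differences between -0.65 and 1.41.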

How the data were processed

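Hippocampal RNA of 16 fetuses (RNA integrity numbers 7.7 to 9.2) was hybridized to 16 arrays on 2 slides, each with all groups. The authors deposited scanner output, an intensity per spot with background subtracted (Feature Extraction 10.1.1.1 in the file headers, another version in the methods), and a table of log2 values with quantiles matched and low signals lifted (R 2.15.1 and limma in the submitters' notes). Here log2 of the deposited intensity minus the array's 75th percentile (882 to 1199 units) was used, without outlier spots and with spots of a probe averaged. Probes detected on at least 3 arrays were tested in one limma 3.58.1 fit (R 4.3.3) of 4 groups, two-sided, tested on simulated data.

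The members and gene lists were chosen with earlier results of these data known. Genes with a probe past an unadjusted p of 0.05, or without overlap and with a difference of at least 1, were given array by array. IL6, TNFSF13B, IFNG and the range of TGFB2 and IFNAR2 were added after their values were seen. Depth does not apply to arrays, and their number limits the precision. Arrays of NC and NK with the same replicate number in the labels deviated together from their group means (r = 0.37, 0.31 and 0.21 over all probes, -0.10 on average for other numbers). NC replicate 3 also went with NK replicate 4 (r = 0.23). The same-numbered arrays of NC and NK lay side by side on a slide, and so did those of HC and HK. A shared ewe and a shared position therefore cannot be told apart. The main fit used no pairs.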

Additional observations from a re-analysis of the deposited data

Results flagged for a closer look

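Of 71 groups of 4 or 5 arrays tested for an array far from the rest, 4 had one, and chance gives about 1 in 20. IL6 in HK had its highest level on replicate 4, with a gap of 0.931 of the range (-4.44 against -4.86). IL3 in HK was highest on replicate 3, with 0.87 of the range (-4.82 against -5.42). IFNG on A_70_P039612 in HC was highest on replicate 4, with 0.824 of the range (-3.99 against -5.15). IFNAR1E on A_70_P030381 in HC was lowest on replicate 1, with 0.83 of the range (2.27 against 2.59). The response of TNFRSF1A to hypoxia differed between fetuses with and without ketamine by -0.603 (limma, unadjusted p = 0.0305).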

How the results depend on the processing

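The counts of called probes moved with the background, the blocks, the arrays fitted and the adjustment. They are given without the share of all probes called at each setting, so a larger count is no result about the members. With normexp 1 member was called in HC-NC, not among those of the main setting, and 0 in HK-NK, in the average and in the interaction. IL7 in HK-NK then had 0.0868, and the IL12A probes on average 0.0286 and 0.0129, against negative values otherwise. Normexp put the median of all probes at 0.344 in HC-NC, 0.283 in NK-NC, 0.193 in the average and -0.312 in the interaction, and that of the members at 1.00, 0.744, 0.60 and -0.813. Of all called probes, 53.2% rather than 42% were higher in HC-NC, 55.6% rather than 39.9% in NK-NC, 55.9% rather than 45.7% on average and 59.2% rather than 71.2% in the interaction (61.1% with quantile normalization). The cause was not tested.

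With the authors' values 4 members were called on average and 0 in the interaction. Without a filter on dim probes there were 5 in HC-NC, 1 in NK-NC and 2 in the interaction, with more probes tested. In fits of the groups compared alone there were 7 in HK-NK and 2 in NK-NC. After adjustment of p, 0 were left in HC-NC, HK-NK, the average and the interaction. With slide as a block the average calls of IL18 and of IL12A on A_70_P051291 were lost (0.37 and -0.86), and those of TGFBR2 (-0.26) and IL7 (-0.81), both lower, were gained, as was TGFBR2 in HC-NC (-0.29). Of 339 recomputed differences of named genes, 336 kept their sign and 243 met the threshold.

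With the replicate number as a block, or as a block within each oxygen group, 6 members were called in HK-HC, all lower (IL18, IL2RA, IL7, both IL12A probes and 1 of TNFSF13B), and 4 in the interaction. The block leaves HC replicate 5, which has no partner, out of HK-HC. In HC and HK same-numbered arrays correlated from 0.07 to 0.40 in their deviations, with a mean of 0.225 against -0.06 for other numbers. Since 1 of 4 was under 0.1, those numbers were not taken to pair the samples, and whether they do is unsettled. The block left 0 calls in NK-NC, and on average the calls of IL10 (0.59) and IL15 (1.26) were lost and those of TGFBR2 (-0.24) and IL7 (-0.78), both lower, were gained.

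Leaving out each array gave 2 to 6 calls in HC-NC (2 without NC replicate 1, 6 without HC replicate 1 or 4) and 0 to 5 in HK-NK (0 without NK replicate 4, 5 without HC replicate 3 or 4). It gave 0 to 1 in NK-NC (CSF, without NK replicate 2 or 4), 0 to 4 in HK-HC and 0 to 2 in the interaction. On average it gave 2 to 9, with 2 without NC replicate 1, NK replicate 4 or HK replicate 4 and 9 without HC replicate 1. Signal over background limits the 8 genes with no tested probe and the IL7 and IL15 results, which rest on few detected arrays.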
